A study of Mus musculus with 32 samples.

Results

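The 10 genes described belong to the machinery with which natural killer (NK) cells and cytotoxic T cells kill, and they were measured in a transplanted mouse sarcoma and in its stroma. They are the granule genes Gzma, Gzmb, Gzmk, Prf1 and Nkg7, the NK receptor genes Klrk1, Klrd1 and Ncr1, and the transcription factor genes Eomes and Tbx21. They were taken by name, out of 22911 gene symbols with a probe. The choice was made with earlier results of these data known. Eomes had 2 probes and each of the other members had 1, and for Eomes the probe with the higher mean over 32 arrays was used. The tumor was MCG 101, a mouse sarcoma that arose after methylcholanthrene and is passed on by transplantation. The hosts were labelled as having or lacking EP2, 1 of the receptors for prostaglandin E2, whose gene is Ptger2. Total RNA was hybridised in 4 groups of 8 one-colour arrays, namely stroma of EP2-/- hosts, stroma of EP2+/+ hosts, tumor of EP2-/- hosts and tumor of EP2+/+ hosts. Each group held 4 arrays labelled female and 4 labelled male. The labels place the knockout in the host and say nothing of the genotype of the implanted cells. They give no age or strain.

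Cytotoxic cells store perforin and granzymes in secretory granules. At contact with a target cell the granules are released, perforin (Prf1) forms pores, and granzymes, which are serine proteases, enter the target and start cell death. Granzyme A (Gzma) and granzyme B (Gzmb) cleave after different residues, granzyme K (Gzmk) is a tryptase-like relative of granzyme A, and Nkg7 is a granule membrane protein needed for efficient granule release. Klrk1 encodes NKG2D, an activating receptor for stress-induced ligands. Klrd1 encodes CD94, the partner of the NKG2 chains that read Qa-1, and Ncr1 encodes NKp46, a receptor largely restricted to NK cells and some innate lymphoid cells. Eomes and Tbx21 (T-bet) are related T-box factors that drive NK and effector T cell maturation and bind near granzyme, perforin and Nkg7 genes. Prostaglandin E2 acting on EP2 raises cAMP, which is known to restrain cytotoxic lymphocytes.

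RefSeq promoters of assembly GRCm38.p6 were given for 9 of the 10 members and not for Klrd1. The 250 bases before the start site are shown for 4 granule genes, because the tissue comparison turns on how these granule genes differ. Capitals mark the T-box core AGGTGT, a longer T-box site AGGTGTGA, which contains the core, and the Runx core TGTGGT, each searched on both strands, so that the reverse complement of a core is also in capitals.
Prf1, chr10:61297586-61297835, plus strand: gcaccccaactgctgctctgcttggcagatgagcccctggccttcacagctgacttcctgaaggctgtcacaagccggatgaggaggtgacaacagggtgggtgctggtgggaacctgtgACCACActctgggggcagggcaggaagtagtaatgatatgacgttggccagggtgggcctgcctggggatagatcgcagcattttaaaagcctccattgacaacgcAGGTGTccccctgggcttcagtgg
Gzmb, chr14:56262335-56262584, minus strand: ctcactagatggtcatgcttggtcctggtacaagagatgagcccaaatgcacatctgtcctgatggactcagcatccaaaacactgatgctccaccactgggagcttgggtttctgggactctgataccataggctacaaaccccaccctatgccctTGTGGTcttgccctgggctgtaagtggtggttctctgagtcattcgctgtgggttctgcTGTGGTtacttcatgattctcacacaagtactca
Gzma, chr13:113100982-113101231, minus strand: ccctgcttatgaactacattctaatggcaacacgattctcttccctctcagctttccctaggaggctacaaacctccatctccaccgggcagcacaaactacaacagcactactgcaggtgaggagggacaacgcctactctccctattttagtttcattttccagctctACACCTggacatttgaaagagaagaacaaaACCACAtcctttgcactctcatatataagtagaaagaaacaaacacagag
Nkg7, chr7:43436888-43437137, plus strand: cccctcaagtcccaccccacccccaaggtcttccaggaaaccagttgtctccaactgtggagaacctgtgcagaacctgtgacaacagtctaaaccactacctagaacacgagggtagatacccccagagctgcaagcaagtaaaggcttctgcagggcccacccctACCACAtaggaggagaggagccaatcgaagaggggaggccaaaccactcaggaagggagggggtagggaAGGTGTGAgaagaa
The T-box core was in the windows of 4 of the 9 member genes (Gzma, Gzmk, Prf1 and Nkg7) and in 11.8% of all 32851 promoters. In Prf1 it began 24 bases before the start site. The longer site was in 1.12% of all promoters and among the members in Nkg7, 14 bases before the start. The Runx core was in the windows of 6 member genes (Gzma, Gzmb, Prf1, Nkg7, Klrk1 and Ncr1) and in 14.0% of all promoters, and Gzmb held it at 93 and at 34 bases before the start. These matches describe letters only.

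Levels are log2 processed signal relative to the 75th percentile of the same array, so that 0 is a bright probe and a step of 1 is a doubling. Each probe has its own scale, and levels are therefore compared between arrays and not between genes. The share of probes well above background was lowest on EP2+/+ stroma 82 (49.99%) and highest on EP2+/+ tumor 5 (76.3%), and saturation did not occur. Outlier spots numbered 58 to 483 per array, with the most on EP2+/+ tumor 5. Precision is limited by how many arrays there are. The first principal component of all genes held 58.8% of the variance and set the tissues apart, with tumor arrays at -161 to -30.8. Arrays EP2+/+ stroma 65 (-68.5) and 82 (-113) lay within the tumor range, and the remaining 14 stroma scores were between 21.9 and 228. The stroma pieces carried muscle and fat signal, with 5 of 5 skeletal muscle markers and 4 of 5 adipocyte markers higher than in tumor. The ratio of Xist to Ddx3y went against the sex label on 5 arrays, 3 of stroma and 2 of tumor. The Ptger2 probe did not separate the genotype labels as a lost transcript would. It read -3.84 to -2.38 (median -3.20) in stroma labelled EP2-/- and -5.65 to -2.58 (median -4.27) in stroma labelled EP2+/+. In tumors it read -5.27 to -3.08 (median -3.73) under the label EP2-/- and -6.18 to -3.46 (median -4.81) under the label EP2+/+. The sources used here do not say whether the probe falls inside the deleted sequence, so it checks nothing, and every genotype below is that of the label.

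Of the members, 8 were bright enough to test. Gzmk was well above background on 3 of 8 arrays of EP2-/- stroma, 0 of EP2+/+ stroma, 1 of EP2-/- tumor and 1 of EP2+/+ tumor. Ncr1 was so on 1, 2, 3 and 1 arrays of the same groups in that order. For these dim genes no fold could be bounded, and they did not pass the filter of the fit. With no filter on dim probes, Gzmk differed by 0.29 ± 0.46 SE and Ncr1 by -0.11 ± 0.43 SE between stroma and tumor (limma adjusted p = 0.656 and 0.858). Between genotype labels the limma adjusted p of both genes was 0.733 or more in stroma and 0.947 or more in tumor. Their highest readings still fell on particular arrays. Gzmk reached -3.14 in EP2-/- stroma 51 and -3.21 in EP2-/- tumor 51, and Ncr1 reached -1.27 in EP2+/+ tumor 5. That Ncr1 reading stood alone, the next highest in EP2+/+ tumor being -5.15. Of the 8 NK markers, Cd244a was well above background on all 32 arrays, and Il2rb and Klra4 each on all but 1 array of EP2+/+ stroma. Klrb1c was so on 7 arrays of EP2-/- stroma, 5 of EP2+/+ stroma, 7 of EP2-/- tumor and 3 of EP2+/+ tumor, whereas Klrc1 was so on 2 arrays in all, both of EP2+/+ tumor. The T cell markers Cd3e and Cd4 were well above background on all 32 arrays. In bulk tissue, fewer cells of a type and less RNA per cell cannot be told apart.

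Set against tumor, the stroma held less perforin, granzyme B and Eomes signal, while the signal of granzyme A, Nkg7 and both NK receptor genes that were tested did not differ beyond its error. In a limma fit of all 32 arrays, 17027 of 27096 genes passed a Benjamini-Hochberg adjusted p of 0.05 (62.8%), 25.8% higher and 37.1% lower in stroma. Of the 8 members, 3 were lower in stroma and 0 were higher, a share of lower calls close to that of all genes. The median difference was -0.03 over the 8 members and -0.14 over all genes tested. In the same comparison 12 of 14 T cell markers read higher in stroma, with 4 passing as higher and 1 as lower (median 0.30), and of 7 tested NK markers 3 read higher and 4 lower, with 1 passing as lower (median -0.22). The part of these cell types in the members' values was not tested.

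Perforin, the pore-forming protein, had the smallest p of the 8 members. Its lowest, median and highest levels were -3.27, -2.71 and -2.07 in EP2-/- stroma and -3.24, -2.20 and -1.74 in EP2+/+ stroma. They were -2.01, -1.62 and 0.55 in EP2-/- tumor and -2.17, -1.14 and 0.36 in EP2+/+ tumor. All EP2-/- stroma arrays lay below all EP2-/- tumor arrays, and all EP2+/+ stroma arrays lay below the EP2+/+ tumor median with some overlap at the edge. The share of all genes without overlap was not computed, so the separation is not shown to be particular to Prf1. Prf1 was 2.71-fold lower in stroma (log2 difference -1.44 ± 0.24 SE, limma adjusted p = 1.06e-05). It passed within each genotype label too, at -1.57 in EP2-/- hosts (adjusted p = 2.80e-04) and -1.31 in EP2+/+ hosts (adjusted p = 0.00676, limma). Of all genes tested, 59.4% passed between the tissues of EP2-/- hosts and 30.2% between those of EP2+/+ hosts.

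Eomes, the T-box factor of NK and memory-type T cells, fell further and less evenly. It ran from -4.40 to -1.69 (median -2.49) in EP2-/- stroma and from -6.86 to -0.04 (median -0.63) in EP2+/+ stroma. In tumor it was nearly constant, from -0.71 to 0.76 (SD 0.50) in EP2-/- hosts and from -0.75 to 0.37 (SD 0.36) in EP2+/+ hosts. The stroma arrays of EP2-/- hosts did not overlap with their tumors, whereas those of EP2+/+ hosts did. As for Prf1, the share of all genes without such overlap was not computed. Eomes was 4.16-fold lower in stroma (-2.06 ± 0.46 SE, limma adjusted p = 3.64e-04). The difference was -2.70 in EP2-/- hosts (adjusted p = 8.45e-04) and -1.41 in EP2+/+ hosts, where it missed the threshold (adjusted p = 0.0978, limma).

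Granzyme B, the main apoptosis-inducing granzyme, followed with a wider spread. Its lowest, median and highest levels were -3.88, -1.98 and 0.14 in EP2-/- stroma and -7.11, -1.54 and 0.11 in EP2+/+ stroma. They were -2.61, 0.11 and 2.94 in EP2-/- tumor and -3.07, -1.31 and 1.23 in EP2+/+ tumor. The groups overlapped in both genotypes. Gzmb was 3.27-fold lower in stroma (-1.71 ± 0.62 SE, limma adjusted p = 0.0190), and in EP2-/- hosts -2.18 (adjusted p = 0.0348), against -1.24 in EP2+/+ hosts (adjusted p = 0.283, limma). The call rested on few arrays. It was lost without EP2-/- tumors 51 and 81 (-1.35, adjusted p = 0.0606), without EP2+/+ stroma 1 and 9 (-1.11, adjusted p = 0.0631) and without the arrays against their sex label (-1.44, adjusted p = 0.0689). For Gzmb, EP2-/- tumors 51 and 81 read highest of the tumors and EP2+/+ stroma 1 and 9 lowest of the stroma arrays. The removal of either pair therefore shrinks the Gzmb difference by construction. Prf1 and Eomes passed in all of these fits.

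The other granule genes and the receptors did not pass between the tissues. Gzma read -0.60, 0.46 and 2.07 (lowest, median, highest) in EP2-/- stroma and -3.68, 0.44 and 1.96 in EP2+/+ stroma, against -2.06, 0.92 and 3.36 in EP2-/- tumor and -1.77, 0.02 and 1.75 in EP2+/+ tumor. These groups overlapped throughout. Gzma differed by -0.10 (95% interval -1.20 to 1.01) and Nkg7 by 0.03 (-1.004 to 1.07). Among the receptors, Klrk1 differed by 0.42 (-0.60 to 1.43) and Klrd1 by 0.18 (-0.79 to 1.14). None of these 4 intervals excludes a doubling in at least 1 direction, so equal levels are not shown. Tbx21, the second T-box factor, was 0.69 ± 0.35 SE higher in stroma and missed the threshold (limma adjusted p = 0.0894). It lay between -3.14 and -1.06 in EP2-/- stroma and -3.64 and -0.94 in EP2+/+ stroma, against -4.81 to -0.99 in EP2-/- tumor and -5.25 to -1.51 in EP2+/+ tumor.

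Arrays of both tissues shared each of 6 slides, which allowed the comparison within slides. Genotype labels were not balanced there, and the plain differences of means per slide ignore them. On 1 slide, for example, EP2+/+ stroma 4 and 68 stood against tumors labelled EP2-/- only. The counts of slides therefore mix tissue with genotype label. The fit with slide as a block kept 1 mean per tissue, genotype and sex label. Gzmb, Prf1 and Eomes were lower in stroma on 6 of 6 slides, with differences of -3.02 to -0.66, -2.17 to -0.37 and -4.30 to -0.26. Tbx21 was higher in stroma on 6 of 6 slides, by 0.48 to 1.10. When slide entered the fit as a fixed block, the estimates were -1.82 for Gzmb, -1.40 for Prf1 and -2.15 for Eomes, all past the threshold (limma adjusted p = 0.00576, 4.10e-05 and 5.28e-04), and 0.84 for Tbx21 (adjusted p = 0.0581).

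Ratios between members on the same array describe how far they moved apart between tissues. The log2 ratio of Gzmb to Gzma on an array averaged -2.39 ± 1.11 in stroma and -0.78 ± 0.52 in tumor (SD, n = 16 each), and 15 of 16 stroma arrays lay below the tumor median. The ratio of Prf1 to Gzma averaged -2.73 ± 1.35 in stroma and -1.39 ± 1.21 in tumor, and that of Eomes to Tbx21 averaged 0.28 ± 2.07 in stroma and 3.02 ± 1.36 in tumor. The pairs were chosen after their values were seen, so the ratios are given without a test, and only their change between tissues can be read.

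**Figure D1:**
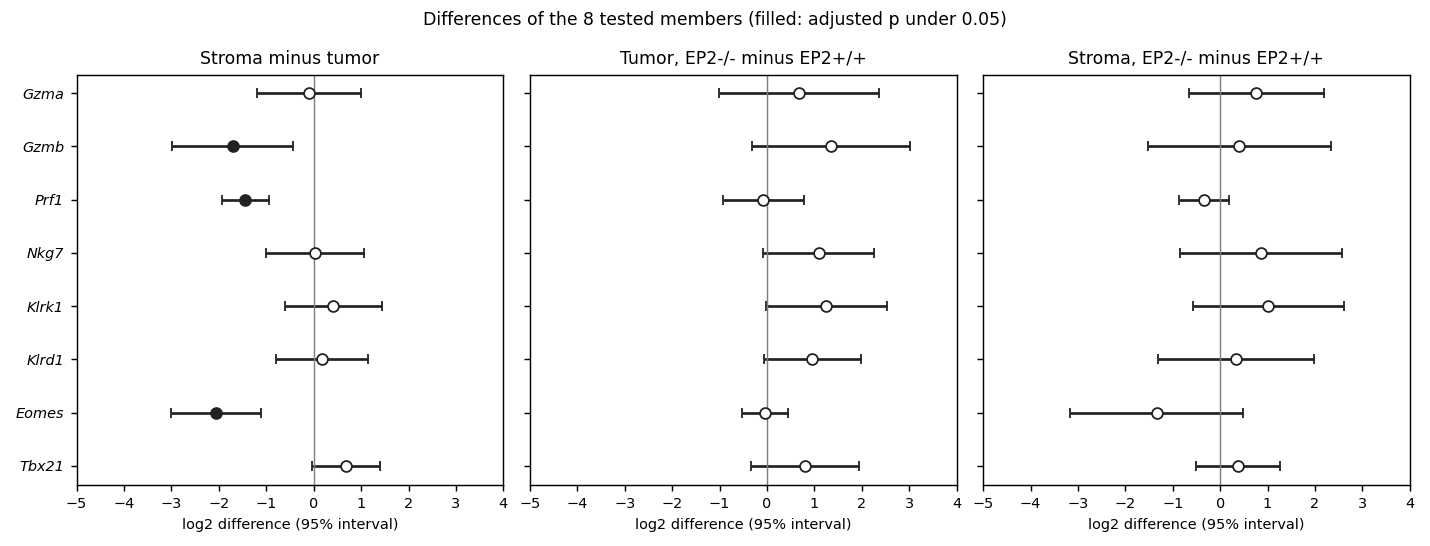
Log2 differences of the 8 tested members with 95% intervals, for stroma minus tumor (32 arrays), and for EP2-/- minus EP2+/+ labels in tumor and in stroma (16 arrays each). Filled points passed an adjusted p of 0.05. The 3 filled points are Gzmb (-1.71), Prf1 (-1.44) and Eomes (-2.06) in the left panel, and every interval in the genotype panels crosses 0.

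In tumors, no member passed the test between genotype labels, and 6 of the 8 tested members read higher in tumors labelled EP2-/-. The intervals were wide, reaching from -0.32 to 3.02 for Gzmb, so a change of several fold is not excluded. None of 23730 genes passed in limma (0.00%), and 786 had an unadjusted p under 0.05 (3.31%), none of them a member. The median difference over the 8 members was 0.88, against 0.004 over all genes tested. Gzmb read -2.61, 0.11 and 2.94 (lowest, median, highest) in tumors labelled EP2-/- and -3.07, -1.31 and 1.23 in those labelled EP2+/+, a difference of 1.35 ± 0.78 SE (adjusted p = 0.976). Nkg7 read -1.33, 0.04 and 2.84 in EP2-/- tumors and -1.62, -0.60 and 0.56 in EP2+/+ tumors, a difference of 1.09 ± 0.55 SE (limma adjusted p = 0.976). These groups overlapped, with 7 of 8 EP2-/- arrays above the EP2+/+ median for each gene.

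Both receptor genes showed the same shape. Klrk1, the NKG2D gene, read -4.11, -1.75 and 0.61 in tumors labelled EP2-/- and -4.60, -2.68 and -1.98 in those labelled EP2+/+, a difference of 1.25 ± 0.60 SE with a 95% interval of -0.02 to 2.53. Klrd1, the CD94 gene, read -3.13, -1.41 and 0.71 in EP2-/- tumors and -2.99, -2.18 and -1.14 in EP2+/+ tumors, a difference of 0.95 ± 0.48 SE (-0.07 to 1.98). For both, 7 of 8 EP2-/- arrays lay above the EP2+/+ median. Gzma differed by 0.68 ± 0.79 SE and Tbx21 by 0.81 ± 0.54 SE. Prf1 (-0.08 ± 0.40 SE) and Eomes (-0.04 ± 0.22 SE) had differences near 0 (limma adjusted p from 0.976 to 0.990 over the 8 members).

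For 7 of the 8 members the highest reading lay in 1 of 2 tumors. EP2-/- tumor 51 was the highest of 16 tumors for 5 of the 8 members and EP2-/- tumor 81 for 2. At the other end, EP2+/+ tumor 65 was the lowest for 3 members and EP2-/- tumor 12 for 2. Without tumors 51 and 81, the 6 higher readings shrank to 0.64 for Gzmb, 0.54 for Klrk1, 0.42 for Nkg7, 0.34 for Klrd1, 0.27 for Tbx21 and -0.003 for Gzma (limma adjusted p = 0.9999 each). Both tumors were labelled EP2-/- and held the 2 highest readings of each of these 6 genes. Their removal therefore lowers these differences by construction. Leaving out tumor 51 alone gave 0.26 for Gzma, 0.47 for Tbx21, 0.59 for Klrd1 and 0.70 for Nkg7. Within the 3 slides that held both genotype labels, the Klrk1 difference was 3.60, 0.69 and -1.05, and with slide as a fixed block it was 0.75 ± 0.96 SE. In the same order Gzmb differed by 3.77, -1.38 and -0.05 and Nkg7 by 3.18, -0.03 and -0.09. Klrd1 and Tbx21 were higher on 2 of these 3 slides and Gzma on 1. The first slide set EP2-/- tumor 81 against 1 EP2+/+ tumor. EP2-/- tumors 15, 51, 59B and 99 shared a slide with no EP2+/+ tumor, so slide and genotype label are partly confounded.

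T cell markers read higher alongside the members and neutrophil markers lower. Of 14 T cell markers 12 read higher in tumors labelled EP2-/-, with a median of 0.88, and their mean level ran from -1.83 to 0.70 in EP2-/- tumors and from -1.85 to -0.79 in EP2+/+ tumors. Of 6 tested NK markers 5 read higher (median 0.49), and of 4 tested neutrophil markers 0 did (median -1.49). All 6 macrophage markers (median 0.59) and all 5 skeletal muscle markers (median 2.02) read higher as well. No gene of these lists passed the test. Their part in the members' values was not tested.

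**Figure D2:**
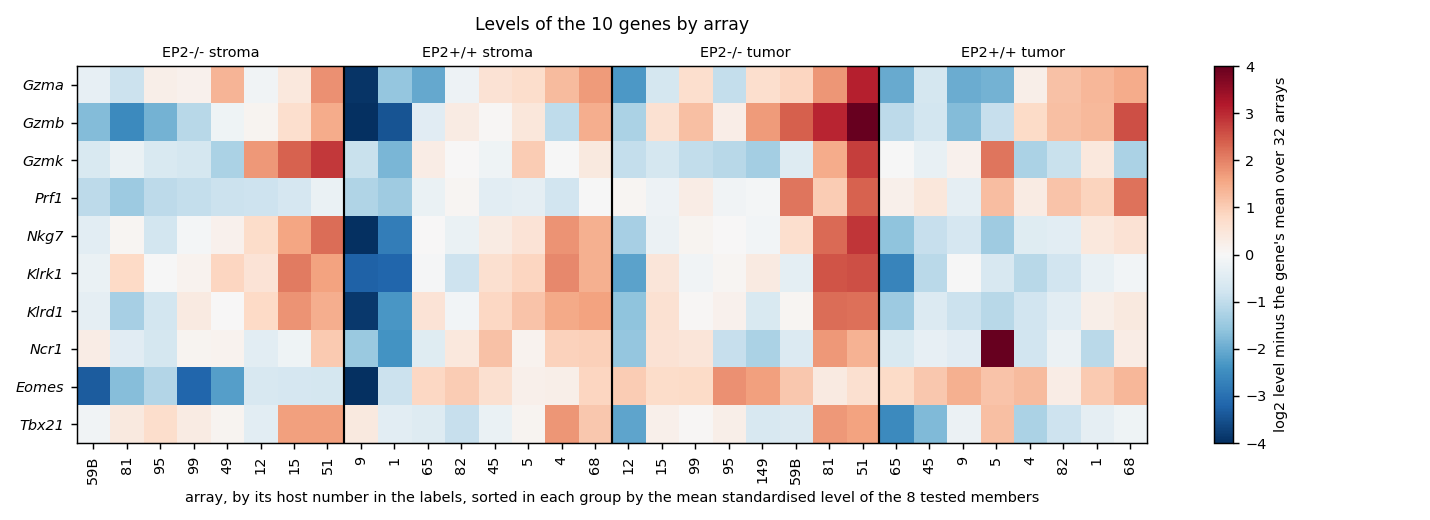
Log2 level of each gene on each of 32 arrays minus the mean of that gene over all arrays, with arrays sorted within each group by the mean standardised level of the 8 tested members. Tumors 51 and 81 of EP2-/- hosts are red for most members, EP2+/+ stroma 9 and 1 are blue for most, and Eomes is red on every tumor array.

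In stroma, again no member passed between genotype labels. None of 24771 genes passed in limma (0.00%), while 6996 had an unadjusted p under 0.05 (28.2%), none of them a member. The difference for Eomes was the largest of the 8 in size, at -1.34 ± 0.86 SE (adjusted p = 0.291). Its levels were -4.40, -2.49 and -1.69 (lowest, median, highest) in stroma labelled EP2-/- and -6.86, -0.63 and -0.04 in stroma labelled EP2+/+. All 8 EP2-/- arrays lay below the EP2+/+ median, and the groups overlapped through EP2+/+ stroma 9 and EP2+/+ stroma 1. The other members differed by -0.34 (Prf1) to 1.02 (Klrk1), with limma adjusted p from 0.352 to 0.780. Nkg7, the granule membrane gene, read -0.74, 0.11 and 2.24 in EP2-/- stroma and -4.35, 0.15 and 1.77 in EP2+/+ stroma. Klrk1 read -2.25, -1.29 and 0.12 in EP2-/- stroma and -5.22, -1.67 and -0.03 in EP2+/+ stroma. Klrd1 read -2.85, -1.34 and 0.28 in EP2-/- stroma and -5.38, -0.83 and 0.10 in EP2+/+ stroma. For these 3 genes the groups overlapped, and the EP2+/+ arrays reached further down.

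Whether Eomes passed in stroma depended on the arrays kept, and so did the number of all genes that passed. EP2+/+ stroma 9 was the lowest of 16 stroma arrays for 6 of the 8 members, Eomes among them. EP2+/+ stroma 1 was among the lowest pair for 5. Without EP2+/+ stroma 9, Eomes differed by -2.15 (limma adjusted p = 0.00729), and the removal of its lowest reading widens the difference by construction. In that fit 8335 genes passed, against 0 of 24771 with all 16 stroma arrays, so the gain was not particular to Eomes. Without EP2+/+ stroma 1 and 9, Eomes differed by -2.33 (adjusted p = 0.00550) and Prf1 by -0.59 (adjusted p = 0.0358), again among 8695 genes that passed in limma. Without the arrays against their sex label, EP2+/+ stroma 9 among them, Eomes differed by -1.90 (limma adjusted p = 0.0257). Without EP2+/+ stroma 65 and 82, the arrays in the tumor range, the Eomes difference was -0.41 ± 0.84 SE. Their Eomes readings (-0.23 and -0.04) were among the highest of the stroma arrays. The removal of this pair therefore shrinks the difference by construction. Within slides, Eomes was lower under the label EP2-/- on 4 of 5 slides, by -2.89 to -1.03, and 5.16 higher on the slide that held EP2+/+ stroma 9.

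Eomes in stroma varied with the first principal component. Scores ran from 95.4 to 208 in EP2-/- stroma and from -113 to 228 in EP2+/+ stroma, with EP2+/+ stroma 82 at the low end and 9 at the high end. Over 16 stroma arrays Eomes correlated with the score at r = -0.76 and rho = -0.91 (permutation tests over 8 members, adjusted p = 0.00380 and 1.60e-04). Prf1 correlated at r = -0.73 and rho = -0.71 (adjusted p = 0.00380 and 0.0115, permutation). Without EP2+/+ stroma 65 and 82, the arrays farthest from the median score, r was -0.79 for Eomes and -0.61 for Prf1. Within the 2 scan days r was -0.75 (n = 7) and -0.77 (n = 9) for Eomes and -0.64 and -0.82 for Prf1. The other 6 members had r between -0.44 and 0.49 and none passed. The component was taken from all genes on the arrays of both tissues, Eomes and Prf1 among them, and it set the tissues apart. Genes lower in stroma than in tumor would therefore tend to fall along it. The share of all genes that correlate as strongly was not computed, so the course is not shown to be particular to Eomes and Prf1. The part of tissue content in the Eomes level was not tested.

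**Figure D3:**
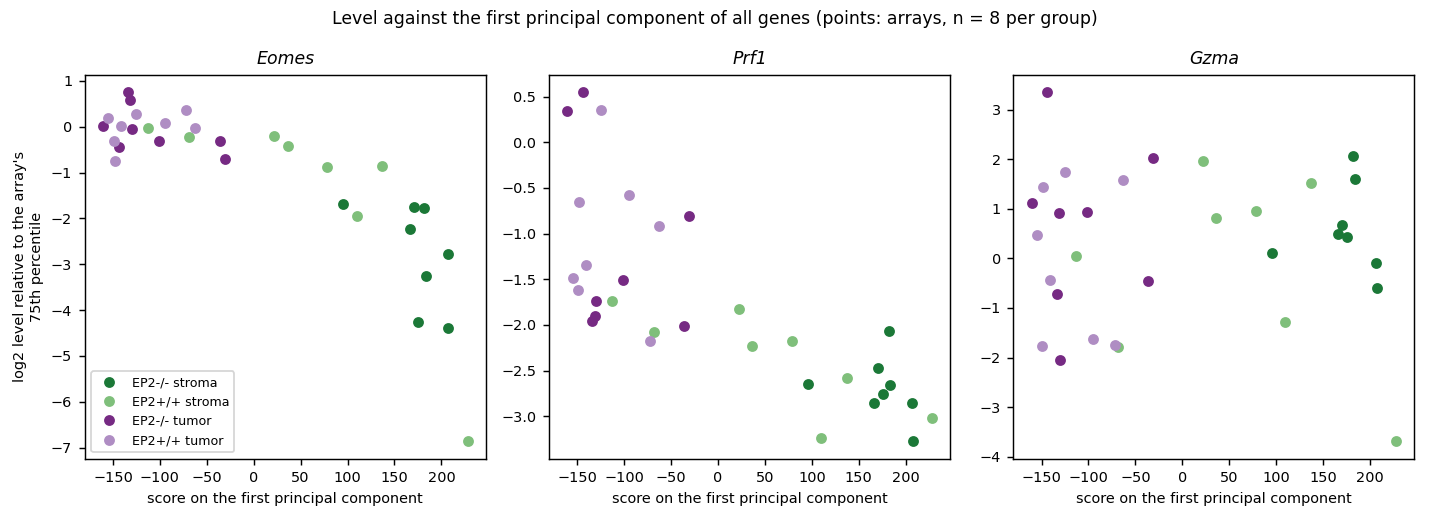
Level of Eomes, Prf1 and Gzma (log2 relative to the array's 75th percentile) against the score of each array on the first principal component of all genes, by group (n = 8 each). Eomes stays between -0.75 and 0.76 on the tumor arrays and falls along the stroma arrays, Prf1 falls less steeply, and Gzma shows no such course.

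The genotype difference was also compared between the tissues. In the limma fit of all arrays, 0 of 27096 genes passed the interaction (0.00%), and 5712 had an unadjusted p under 0.05 (21.1%), none of them a member. The members' adjusted p ran from 0.407 to 0.970.

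Within each tissue the levels of most members varied together from array to array. All 21 pairs of the 7 tested members without Eomes correlated positively over 16 tumors, at r of 0.34 to 0.95, and 17 of them passed (permutation tests, Benjamini-Hochberg over 28 pairs). Gzma and Gzmb gave r = 0.95 and rho = 0.95, and 0.93 without the 2 most distant tumors. All 7 pairs with Eomes had a negative r, from -0.38 to -0.16, and none passed (smallest permutation adjusted p = 0.198). The sign of these pairs was not stable, since without the 2 most distant tumors r was 0.36 with Klrk1, 0.19 with Nkg7 and 0.04 with Klrd1. On the second scan day r was 0.54 with Klrk1, 0.33 with Tbx21 and 0.18 with Nkg7. In stroma 27 of 28 pairs were positive and 18 passed, 4 of them with Eomes. Nkg7 and Klrk1 gave r = 0.96 and rho = 0.92 in stroma, and 0.88 without EP2+/+ stroma 9 and 1. Other pairs moved more without these arrays. For Gzmb and Klrk1 r fell from 0.79 to 0.40 and for Nkg7 and Eomes from 0.61 to 0.33. For Nkg7 and Tbx21 it rose from 0.48 to 0.74. By rho, 13 pairs passed in tumor and 17 in stroma. The arrays of a tissue share scaling and differ in tissue content. The share of pairs of other genes that correlate as strongly was not computed. The joint variation is therefore not shown to be particular to the members. Within the scan days, pairs without Eomes had r of 0.27 to 0.99 and of 0.01 to 0.96 in tumor. In stroma they had r of -0.004 to 0.92 and of -0.28 to 0.97, and pairs with Eomes -0.14 to 0.78 and -0.27 to 0.81.

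**Figure D4:**
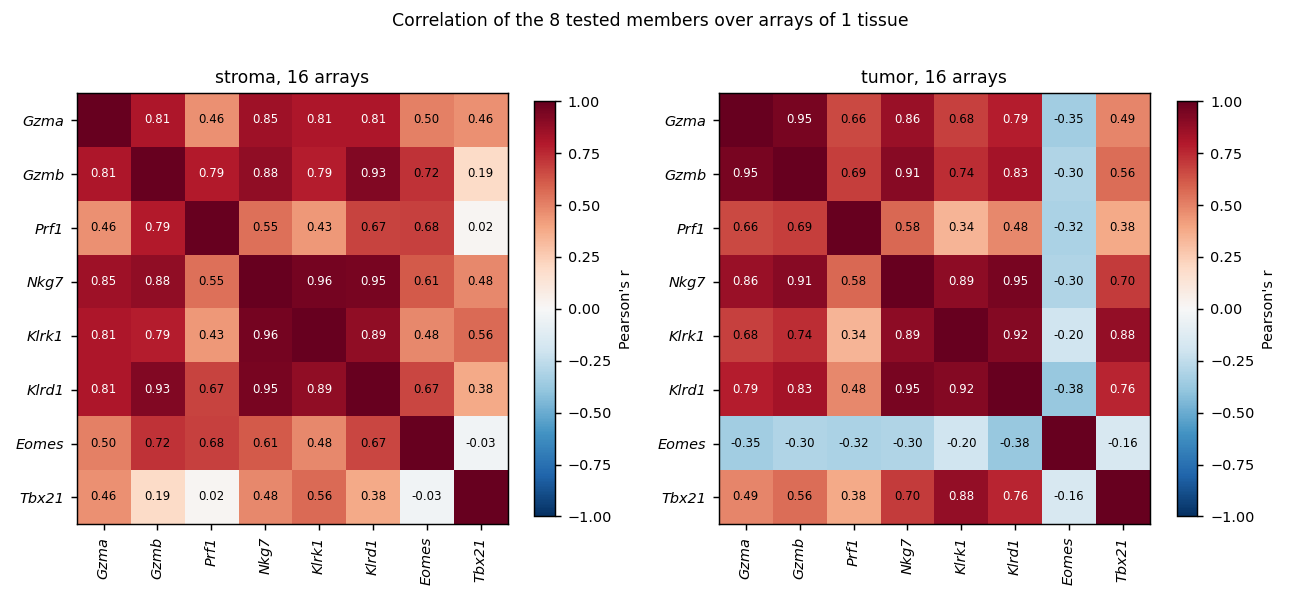
Pearson's r between the 8 tested members over the 16 stroma arrays (left) and the 16 tumor arrays (right), with each value printed. In tumor the Eomes row runs from -0.38 to -0.16 while the other pairs run from 0.34 to 0.95. In stroma Eomes gives r = 0.72 with Gzmb and -0.03 with Tbx21.

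The genes whose pattern was most like the mean of the 8 members included several known from T and NK cells. Over 16 tumors and 14329 candidate genes, the 5 with the highest r were Il2rb (0.95), the shared receptor chain for IL-2 and IL-15, Zap70 (0.94), a T cell receptor kinase, Fasl (0.94), a death ligand, Skap1 (0.92), a T cell adaptor, and Tlr12 (0.92). Over 16 stroma arrays and 15091 candidates they were Tnfrsf18 (0.96), Ccl5 (0.96), Bcl2a1d (0.95), Ms4a4b (0.95) and again Il2rb (0.95). Among markers named by rule, Cd8a had r = 0.87 in tumor and 0.78 in stroma, Cd3e 0.68 and 0.90, and Cd4 -0.11 and 0.37. The mast cell chymase gene Cma1 had r = 0.39 in tumor and 0.66 in stroma. Likeness was not particular to T and NK cell genes. In stroma the T cell markers ran from -0.40 (Cd28) to 0.95 (Cd3g). Macrophage markers ran there from 0.13 (Cd163) to 0.88 (Cd68), and tested B cell markers from 0.11 (Cd22) to 0.82 (Cd79b). In tumor macrophage markers ran from 0.13 (Cd163) to 0.73 (C1qa). The median r over all candidates was -0.06 in tumor and -0.11 in stroma. These r describe likeness and carry no test.

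Other genes of the granule pathway passed between tissues about as often as all genes. Of 18 genes of granule machinery and death ligands, 4 were higher and 6 lower in stroma (limma, median -0.03), next to 25.8% higher and 37.1% lower over all genes. The lower ones included 5 granzymes that sit in 1 cluster with Gzmb. Gzme had the smallest p and was -3.68 ± 0.68 SE lower (adjusted p = 3.79e-05). Its mean level was -4.54 ± 1.58 in EP2-/- stroma and -1.94 ± 2.49 in EP2+/+ stroma, against -0.04 ± 2.22 in EP2-/- tumor and 0.92 ± 1.67 in EP2+/+ tumor (SD, n = 8 each). Gzme was well above background on 4 of 8 arrays of EP2-/- stroma and 7 of EP2+/+ stroma. Readings near background therefore enter its size. Gzmc, named after its values were seen, differed by -2.35 (limma adjusted p = 0.00474). The other 3, Gzmd, Gzmf and Gzmg, were also named after their values were seen. They met the filter mainly through tumor arrays, so no size is given, and their place among the 6 lower genes supports nothing. They were well above background on 0 of 8 arrays of EP2-/- stroma each and on 3, 2 and 2 of EP2+/+ stroma, against 4, 4 and 3 of EP2-/- tumor and 5, 7 and 5 of EP2+/+ tumor. These genes are close relatives, and cross-hybridisation among them was not tested. The death ligand gene Tnfsf10 (TRAIL) was 2.20 ± 0.41 SE higher in stroma (adjusted p = 4.39e-05, limma).

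Among 14 tested NK receptors and adaptors, 1 was lower and 1 higher in stroma, a smaller share than the 62.8% of all genes that passed. Klra4, which encodes the activating receptor Ly49D, was lower by -3.19 ± 0.70 SE (limma adjusted p = 2.75e-04). Like Eomes it was nearly constant in tumor, at 4.18 ± 0.33 in EP2-/- and 4.14 ± 0.41 in EP2+/+ hosts, against -0.10 ± 1.40 in EP2-/- stroma and 2.04 ± 3.84 in EP2+/+ stroma (SD, n = 8 each). The Klra genes are close relatives, and cross-hybridisation among them was not tested. Fcgr3, an Fc receptor also carried by macrophages, was 1.26 higher in stroma (adjusted p = 0.00691, limma), where 5 of 6 macrophage markers were higher as well.

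In the remaining lists the shares that passed are to be read against the same 25.8% higher and 37.1% lower over all genes. Of 7 tested ligands of NK receptors, 2 were higher and 3 lower in stroma. Clec2d, whose product binds the NKR-P1 inhibitory receptor, was 2.85 ± 0.28 SE higher (limma adjusted p = 2.85e-08), and Ulbp1, which encodes an NKG2D ligand, was lower by -1.30 ± 0.24 SE (adjusted p = 4.26e-05). Of 13 tested cytokines and chemokines, 4 were higher and 2 lower. Il18, a cytokine that stimulates NK cells, was 1.43 higher in stroma (limma adjusted p = 7.17e-04). Il12a, which encodes a subunit of IL-12, met the filter mainly through stroma. No size is given for it, and its place among the 4 higher genes supports nothing. It was well above background on 8 of 8 arrays of EP2-/- stroma and 4 of EP2+/+ stroma, against 0 of EP2-/- tumor and 2 of EP2+/+ tumor. Of 9 tested transcription factors, 2 were higher and 4 lower, among them Prdm1 (Blimp-1) at -1.34 and Ets1 at -0.54 (adjusted p = 8.53e-04 and 0.00339, limma). Mast cells, which also store granule proteases, gave a further contrast, with 5 of 5 tested markers higher in stroma. Cma1 averaged 3.15 ± 0.68 in EP2-/- stroma and 2.19 ± 1.13 in EP2+/+ stroma, against 0.17 ± 1.51 in EP2-/- tumor and 0.18 ± 0.73 in EP2+/+ tumor.

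Between genotype labels none of these list genes passed in either tissue. In tumor, 9 of 10 tested cytokines and chemokines read higher under the label EP2-/- (median 0.60), as did 10 of 11 NK receptors and adaptors (median 0.39) and 10 of 18 granule genes (median 0.03). Of 7 ligands of NK receptors 3 read higher (median -0.06) and of 8 transcription factors 5 did (median 0.10), while 50.6% of all genes tested read higher. The smallest p values belonged to Il18r1 (1.22 ± 0.43 SE) among receptors, Ifng (1.94 ± 0.75 SE), Xcl1 (1.34 ± 0.57 SE) and Cxcl10 (1.51 ± 0.77 SE) among cytokines, and Serpinb9 (0.94 ± 0.41 SE), the intracellular inhibitor of granzyme B, among granule genes (limma adjusted p = 0.976 each). Ifng read -4.90 to 1.40 in tumors labelled EP2-/- and -4.997 to -2.22 in those labelled EP2+/+. Of the remaining genes named by the same rule, Fasl, Tnfsf10, Il2rb, Klrb1c, Cd48, H2-T23 and Clec2d differed by 0.37 to 1.35, and Nfil3, Prdm1 and Zeb2 by -0.36 to -0.16. In stroma, all 14 T cell markers read higher under the label EP2-/- (median 0.60) and 10 of 11 cytokines did (median 0.43). So did all 6 macrophage (median 1.02), 5 adipocyte (median 1.99) and 5 skeletal muscle markers (median 1.48), none of them passing in limma. Of 6 tested NK markers 4 read higher (median 0.37), of 9 transcription factors 5 (median 0.15) and of 4 neutrophil markers 2 (median -0.01). Over all genes tested in stroma 54.5% read higher (median 0.08), and of the 8 members 6 did (median 0.39). The part of these cell types in the members' values was not tested either.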

How the data were processed

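Total RNA from MCG 101 tumors and their stroma was hybridised to 32 one-colour Agilent arrays. Per the labels' protocols, 200 ng of RNA with an integrity number above 7 was used, and the submitters' processing notes name Agilent Feature Extraction 10.7.3.1. The deposited scanner files give, per the file headers, the processed signal intensity of each spot as Feature Extraction writes it, with steps and settings not given in the sources used here. The deposited value table holds log2 values. Set against the scanner values, it was the same signal scaled to the 75th percentile and centred per probe within each tissue (99.5% of stroma and 98.7% of tumor values within 0.01, column medians -0.315 to 0.563), and it served as an alternative.

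Control and outlier spots were left out, spots of a probe averaged, and each array was scaled to its own 75th percentile (402.6 to 1133 intensity units) on the log2 scale. Of 56605 probes, 32994 were matched by accession to a RefSeq symbol. Per gene the probe with the highest mean was kept. A gene was tested where at least 8 arrays of the fit had it well above background, with limma 3.58.1 in R 4.3.3 and 1 mean per genotype and sex label within a tissue, or per tissue, genotype and sex label over 32 arrays. P-values were adjusted by the Benjamini-Hochberg method over all genes tested, at a threshold of 0.05. Correlations were tested two-sided with 100000 permutations (numpy 2.4.6) over the 16 arrays of a tissue, with both genotype labels pooled and not centred. The fits were tested on simulated data. Named are the members, from each pathway list the 3 genes with the smallest p between genotypes in tumor and the 2 with the smallest p between tissues, the 5 genes per tissue most like the members' mean, and Cd3e, Cd8a, Cd4 and Cma1. The members and lists were chosen with earlier results of these data known. The labels do not say that the samples of a group came from separate animals, so p-values measure the spread between samples. Alternatives covered background correction, scaling, the filter, probes, slide, sex label, replicate number, array weights and left-out arrays. Promoter sequences are from RefSeq on GRCm38.p6, another build than the array grid's, and no coordinates of probes were used.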

Additional observations from a re-analysis of the deposited data

Results flagged for a closer look

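Within the 40 sets of 8 arrays (10 genes in 4 groups), 3 single readings stood far from the rest of their group, and chance alone flags about 1 in 20 groups. Eomes in EP2+/+ stroma 9 was -6.86, not well above background, while the nearest array of that group was at -1.94. Ncr1 in EP2+/+ tumor 5 was -1.27 and well above background, and the nearest was at -5.15. That array had the most outlier spots (483) and the highest share of probes well above background. Klrk1 in EP2+/+ tumor 65 was -4.60, not well above background, and the nearest was at -3.07.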

How the results depend on the processing

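Between tissues, Prf1 and Eomes kept their direction and call under every alternative in which they were tested, and Gzmb lost its call under the 3 exclusions given above. With only genes well above background on all arrays, 1 member and 10901 genes passed. Gzma turned to 0.0282 when scaled on probes bright on all arrays, 0.246 without EP2-/- tumors 51 and 81 and 0.288 without EP2+/+ stroma 1 and 9. Nkg7 turned to -0.11 without EP2+/+ stroma 65 and 82 and -0.0565 without EP2+/+ tumor 5. Tbx21 passed at 0.95 without EP2-/- tumors 51 and 81, 0.91 without EP2+/+ stroma 65 and 82 and 0.81 without EP2+/+ tumor 5. For Tbx21, these tumors read highest of all tumors and these stroma arrays lowest of all stroma arrays. Each of these removals therefore widens the Tbx21 difference by construction. The exclusions of EP2+/+ tumor 5 and of EP2+/+ stroma 1 and 9 were chosen after seeing the data, as was the median spot signal used in the normexp correction.

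In tumor, no alternative gave a member a call. Gzma was -0.00302 without EP2-/- tumors 51 and 81. Prf1 turned to 0.00352 without the arrays against their sex label and ranged from -0.28 (without EP2-/- tumor 51) to 0.126 when 1 array was left out, with positive values also at 0.0615, 0.087 and 0.0985. Eomes turned to 0.0142 with array weights, 0.132 without EP2-/- tumors 51 and 81, and ranged from -0.19 (without EP2-/- tumor 95) to 0.0543 (without EP2-/- tumor 81) when 1 array was left out, with positive values also at 0.0136, 0.0381 and 0.0423.

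In stroma, the number of genes passing ranged from 0 to 8335 when 1 array was left out, with 8 without EP2-/- 12 and 5122 without EP2+/+ 4, and the number of members from 0 to 1. It was 4338 with all 32 arrays in 1 fit, 16154 with array weights (4 members), 5518 without the arrays against their sex label (1 member) and 8695 without EP2+/+ stroma 1 and 9 (2 members). The 4 members with array weights were Gzma (1.17), Prf1 (-0.54), Eomes (-2.24) and Tbx21 (0.80). Turned signs were Gzmb at -0.508 and Klrd1 at -0.447 with array weights, -0.132 and -0.126 without the arrays against their sex label, -0.781 and -0.674 without EP2+/+ stroma 1 and 9, -0.107 and -0.11 without EP2+/+ 1, and -0.27 and -0.233 without EP2+/+ 9. With 1 array left out, their highest values were 0.75 for Gzmb (without EP2+/+ 82) and 0.66 for Klrd1 (without EP2+/+ 4). Without EP2+/+ stroma 1 and 9, Gzma was -0.00126 and Nkg7 -0.183, and Tbx21 was -0.0703 without EP2+/+ stroma 65 and 82. For the interaction, array weights gave 1 member and 13198 genes, and leaving out the arrays against their sex label gave 2137 genes. The cause of these shifts was not tested.

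Stroma and tumor shared 15 replicate numbers, but the deviations of same-numbered arrays correlated at -0.04 to 0.34, with 9 of 15 above 0.1 and 5 matching their own number best, so pairing was not established. With the replicate number as a fixed block, 4 members passed between tissues, Tbx21 (0.68, limma adjusted p = 0.0468) joining the other 3. As a random block it gave 3 members between tissues and 4485 genes between genotypes in stroma, with 0 members.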
